A study of Homo sapiens with 5 samples.

Results

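The chromosome 3q26 gene block described here is a list of 43 genes on a 15.64 Mb stretch of the long arm of human chromosome 3, of 58174 genes in the expression table. The genes were chosen by name from that stretch once the differences between the 5 libraries were known, so those differences are given as a description. The calls below use limma p-values from that same contrast and are not a test of the list. The libraries came from Ishikawa cells, an established line of human endometrial carcinoma. In 3 libraries (sh-LINC00958) the cells carried a lentiviral short hairpin RNA against the long non-coding RNA LINC00958, and in 2 libraries (sh-NC) a negative control. Puromycin at 2.5 µg/ml, begun 72 h after infection, selected the infected cells, a protocol that the labels give for both groups. The model is 1 cell line, and how many hairpins were used is not given in the sources used here.

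Chromosome band 3q26 and its surroundings are gained in many human carcinomas, squamous tumours of lung and of the head and neck in particular, and in ovarian and endometrial tumours. Genes of the region that have been studied as drivers of such gains include PRKCI, which encodes the atypical protein kinase C iota of the cell polarity machinery, SOX2, MECOM, EIF5A2, SEC62, FXR1 and DCUN1D1. They share a position on the chromosome rather than a pathway, and their products work in cell polarity, protein synthesis and secretion, chromatin, ubiquitin-like modification and mitochondria.

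Values are TPM, a transcript level scaled for gene length and library total, and the depth of each library is unknown. LINC00958 itself was at 67.2, 67.1 and 58.4 TPM in sh-LINC00958 and at 119.3 and 137.4 TPM in sh-NC. Its fold change was -0.99 on the log2(TPM + 1) scale used throughout (SE 0.106, limma adjusted p = 0.0119), and its groups did not overlap. Of 10 endometrial epithelial markers 8 had a mean of at least 1 TPM, with sums of 2407 to 2575 TPM in sh-LINC00958 and 2457 to 2459 TPM in sh-NC, while the hormone receptor genes ESR1 and PGR were at or near 0 in every library. Single markers moved within that sum. KRT18 rose to a mean of 342 TPM in sh-LINC00958, against 252 TPM in sh-NC (limma adjusted p = 0.0211). HOXA10 (11.4 TPM in sh-LINC00958 and 32.3 TPM in sh-NC, limma adjusted p = 0.0568), PAX8, EPCAM and SOX17 were lower in every silenced library without a call. KRT8 (means of 620 TPM in sh-LINC00958 and 515 TPM in sh-NC) and KRT19 (191 TPM and 147 TPM) were higher in every one, also without a call. The 3 blood markers summed to 0.145 TPM or less in any library, with CD3E at 0. The 3 endothelial markers summed to 4.39 to 5.89 TPM in sh-LINC00958 and 6.46 to 6.88 TPM in sh-NC. The 5 fibroblast markers summed to 4.73 to 5.33 TPM in sh-LINC00958 and 4.40 to 4.78 TPM in sh-NC, with DCN at 0. The part of these markers in the results below was not tested. In bulk RNA, fewer cells of a type and less RNA per cell cannot be told apart.

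The expressed genes of the block leaned to lower levels in sh-LINC00958, with 10 called lower, 1 called higher and 17 that did not pass. Of the 43 genes, 28 had a mean of at least 1 TPM over the 5 libraries and entered the test. Among these 28, 21 had a negative fold change and 7 a positive one, with a median of -0.40 and a middle range of -0.75 to -0.01. The median over all 17049 genes tested was 0.0014. At a limma adjusted p of 0.05, 10 of the 28 were lower (35.7%, against 5.68% of all genes tested) and 1 was higher (3.57%, against 4.12%). The 10 were PDCD10, SEC62, PHC3, PRKCI, EIF5A2, NCEH1, TBL1XR1, ZNF639, GNB4 and CCDC39, and the 1 was MCCC1. In 13 of the 28 every sh-LINC00958 library lay below both sh-NC libraries (46.4%, against 25.5% of all genes tested). In 3 every sh-LINC00958 library lay above both (10.7%, against 24.4%), and in 12 the groups overlapped. The genes were taken from this same contrast, so nothing is read from these shares.

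The counts of calls moved when single libraries were left out, in the block as over all genes. The median fold change of the block then stayed between -0.46 and -0.35. Without sh-LINC00958 replicate 1 or without replicate 3, 1 gene was called lower, EIF5A2 in both cases, and limma called 0 higher (13 lower and 1 higher at an unadjusted p under 0.05 each time, as with all libraries). Lower calls over all genes were then 0.299% and 0.85%. Without sh-LINC00958 replicate 2 there were 12 lower and 1 higher in the block, and 8.72% of all genes were called lower. Without either sh-NC library limma called 0 genes of the block, although 11 lower genes had an unadjusted p under 0.05 in each case (with 1 higher gene when sh-NC replicate 1 was left out, and 2 when sh-NC replicate 2 was). Of all genes, 0.0704% and 0.0352% were called lower in these 2 fits.

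**Figure D1:**
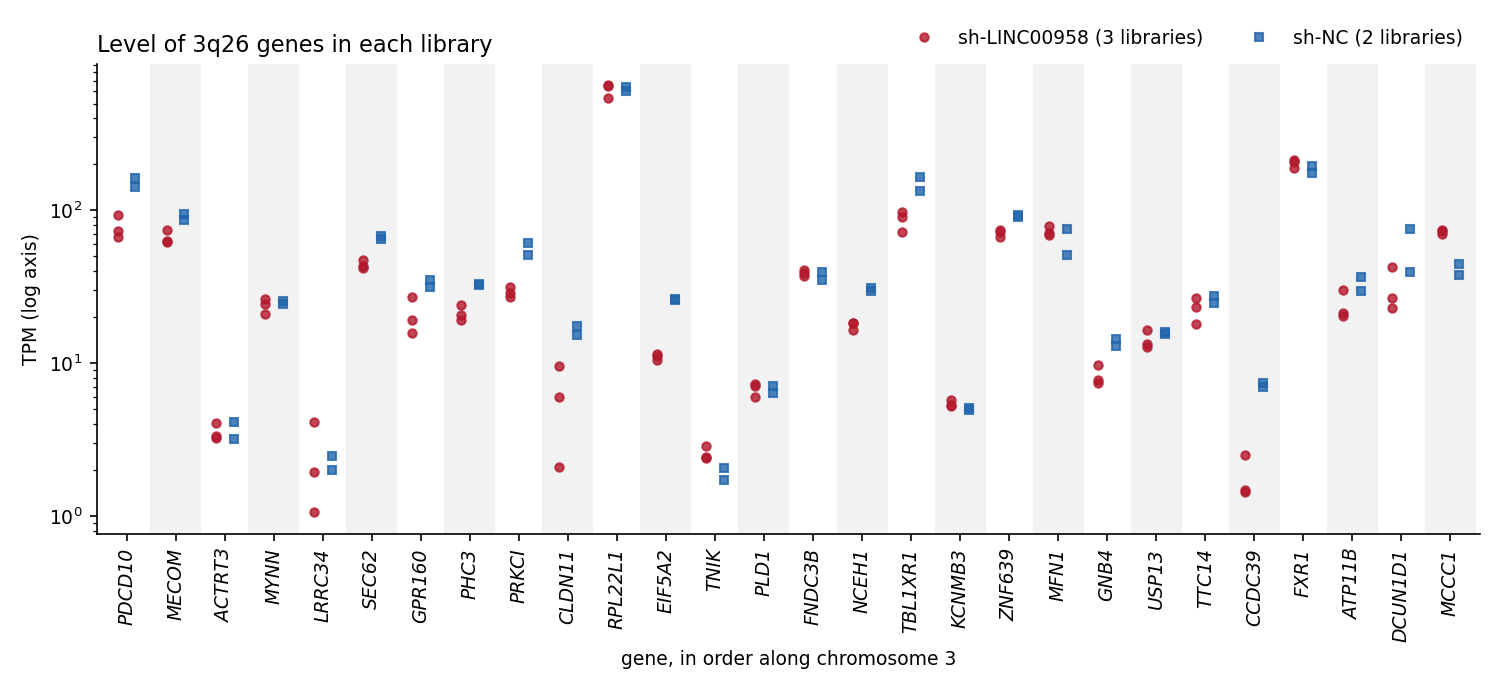
Level in TPM (log axis) of the 28 tested 3q26 genes in each of 3 sh-LINC00958 libraries (circles) and 2 sh-NC libraries (squares), in order along chromosome 3. The widest gaps below the sh-NC libraries are at CCDC39, CLDN11 and EIF5A2, MCCC1 is the gene with a wide gap above them, and RPL22L1 and FXR1 have the highest levels.

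Genes of protein synthesis and secretion held both the highest level and one of the largest differences of the block. EIF5A2 (ENSG00000163577, minus strand, chr3:170888415-170908693) encodes the second form of translation factor eIF5A, which carries the modified amino acid hypusine. EIF5A2 was at 10.4, 11.1 and 11.5 TPM in sh-LINC00958 and at 25.9 and 26.5 TPM in sh-NC. The 3 silenced libraries lay close together and far under both controls, at a mean of 11.0 ± 0.518 TPM (SD, n = 3) against 26.2 ± 0.385 TPM (SD, n = 2). The fold change of EIF5A2 was -1.18 (SE 0.0997, 95% interval -1.42 to -0.94), and the sh-LINC00958 mean was 42.0% of the sh-NC mean. SEC62 (ENSG00000008952, plus strand, chr3:169966635-169998373), a membrane protein that helps pass new proteins into the endoplasmic reticulum, was at 42.9, 47.5 and 42.0 TPM in sh-LINC00958 and at 68.4 and 64.6 TPM in sh-NC. The groups were well apart, with means of 44.1 ± 2.94 TPM (SD, n = 3) and 66.5 ± 2.64 TPM (SD, n = 2) and a fold change of -0.58 (95% interval -0.81 to -0.36).

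RPL22L1, a close relative of the ribosomal protein gene RPL22, had the highest level of the block. It measured 657, 647 and 547 TPM in sh-LINC00958 and 639 and 604 TPM in sh-NC. Its groups overlapped, with a fold change of -0.01 (95% interval -0.26 to 0.23), and reads of ribosomal protein genes can be shared with pseudogene copies elsewhere. FXR1, an RNA-binding protein of the fragile X family, measured 190.5, 207 and 212 TPM in sh-LINC00958 and 194 and 176 TPM in sh-NC. The groups of FXR1 overlapped as well, with a fold change of 0.13 (95% interval -0.07 to 0.34).

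EIF5A2 lies 17.9 kb from RPL22L1 on the same strand, and their fold changes were -1.18 and -0.01. The promoter windows below come from RefSeq (GRCh38.p14) and run from 250 bases before to 50 bases after the annotated start, on the gene's own strand. They are shown for the 4 genes called lower with the largest fold changes and for the gene called higher, with SERPINI1 as the gene that faces PDCD10. Capitals mark matches, on either strand, to TATAAA (the TATA box), to CCAAT (the CCAAT box), to GGGCGG (the GC box), to CCGGAAGT (the ETS family), to GCATGCGC (NRF1), to CACGTG (the E-box), to TGACGTCA (CRE), to TGACTCA (AP-1) or to TTTGGCGC (E2F). None of these letters contains another of the set, and no matches overlap in the windows printed. The windows are EIF5A2 (minus strand, chr3:170908588-170908887), PRKCI (plus strand, chr3:170222174-170222473), CCDC39 (minus strand, chr3:180679440-180679739), MCCC1 (minus strand, chr3:183099538-183099837), PDCD10 (minus strand, chr3:167734843-167735142) and SERPINI1 (plus strand, chr3:167735471-167735770).
EIF5A2: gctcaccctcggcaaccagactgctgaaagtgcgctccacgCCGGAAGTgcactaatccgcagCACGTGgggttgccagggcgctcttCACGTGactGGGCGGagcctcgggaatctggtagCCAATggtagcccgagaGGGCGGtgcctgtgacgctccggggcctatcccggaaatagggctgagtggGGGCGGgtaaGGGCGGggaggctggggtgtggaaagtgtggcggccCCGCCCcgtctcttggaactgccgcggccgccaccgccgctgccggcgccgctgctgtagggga
PRKCI: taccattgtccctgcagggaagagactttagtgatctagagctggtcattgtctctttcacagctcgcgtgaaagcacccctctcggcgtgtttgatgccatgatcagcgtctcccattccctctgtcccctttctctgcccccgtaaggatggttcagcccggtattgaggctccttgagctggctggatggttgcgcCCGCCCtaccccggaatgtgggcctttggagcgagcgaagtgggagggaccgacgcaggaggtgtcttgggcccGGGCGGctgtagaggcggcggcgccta
CCDC39: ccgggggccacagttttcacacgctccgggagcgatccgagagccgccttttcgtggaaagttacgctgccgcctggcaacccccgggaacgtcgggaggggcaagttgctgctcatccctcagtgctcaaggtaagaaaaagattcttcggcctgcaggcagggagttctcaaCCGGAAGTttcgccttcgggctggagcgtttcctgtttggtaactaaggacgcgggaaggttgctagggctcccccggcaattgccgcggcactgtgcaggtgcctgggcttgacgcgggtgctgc
MCCC1: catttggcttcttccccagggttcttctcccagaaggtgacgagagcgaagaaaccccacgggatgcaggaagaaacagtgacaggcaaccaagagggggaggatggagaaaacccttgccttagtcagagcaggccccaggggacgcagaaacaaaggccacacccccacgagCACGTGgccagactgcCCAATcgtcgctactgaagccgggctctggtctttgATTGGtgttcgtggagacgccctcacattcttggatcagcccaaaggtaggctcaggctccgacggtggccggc
PDCD10: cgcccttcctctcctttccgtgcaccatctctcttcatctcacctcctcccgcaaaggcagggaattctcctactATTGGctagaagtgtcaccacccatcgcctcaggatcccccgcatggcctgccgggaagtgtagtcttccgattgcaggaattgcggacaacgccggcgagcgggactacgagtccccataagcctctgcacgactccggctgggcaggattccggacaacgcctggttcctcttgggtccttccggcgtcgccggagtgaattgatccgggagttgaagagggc
SERPINI1: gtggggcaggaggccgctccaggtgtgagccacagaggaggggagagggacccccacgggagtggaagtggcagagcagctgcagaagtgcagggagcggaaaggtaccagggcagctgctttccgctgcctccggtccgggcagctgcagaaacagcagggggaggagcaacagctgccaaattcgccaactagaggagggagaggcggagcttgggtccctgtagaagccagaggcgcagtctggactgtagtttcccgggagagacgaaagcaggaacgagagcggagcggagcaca

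The EIF5A2 window held 5 GC boxes, 2 E-boxes, 1 CCAAT and 1 ETS match, the most of the 6 windows printed. The PRKCI window held 2 GC boxes, the CCDC39 window 1 ETS match, the PDCD10 window 1 CCAAT, and the SERPINI1 window no match. In the MCCC1 window there were 2 CCAAT matches and 1 E-box. A match describes letters in the reference and does not show that a factor binds there, and no binding was measured.

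RefSeq gave such a window for 41 of the 43 genes, ATP11B and SPATA16 being the others. GC boxes were found in 22 of the 41 windows and in 7 of the 10 windows of genes called lower, against 44.95% of all 35116 human windows. Most windows of the tested genes of the block not called lower held a GC box as well. The 7 of 10 is thus not particular to the genes called lower. CCAAT was in 18 of the 41 and in 4 of the 10, against 34.6% of all windows. The ETS letters were in 4 of the 41 windows, against 4.14% of all, those of NRF1 in 2, against 3.05%, and the E-box in 3, against 7.26%. TATAAA was in 6 of the 41 windows, against 11.5% of all. The CRE, AP-1 and E2F letters were in 0 of the 41, and in 1.85%, 4.95% and 0.652% of all windows. The windows of the 10 genes called lower had a median GC content of 64.0% (range 56.3% to 75%) and a median of 25 CpG, against 58.7% and 14 CpG over all windows. The 27 windows of tested genes of the block, which include these 10, had medians of 62% and 24 CpG. The 14 windows of untested genes had medians of 56% and 6.5 CpG. The promoters of the genes called lower were thus GC-rich, but so were those of the tested genes of the block as a whole. Their transcripts were not (below).

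Signalling and polarity genes made up the next group. PRKCI (ENSG00000163558, plus strand, chr3:170222365-170305981) was at 27.1, 31.6 and 28.7 TPM in sh-LINC00958 and at 50.8 and 60.9 TPM in sh-NC. All 3 silenced libraries were under both controls, at 29.1 ± 2.28 TPM (SD, n = 3) against 55.9 ± 7.11 TPM (SD, n = 2), and the fold change was -0.91 (SE 0.118, 95% interval -1.20 to -0.62). PDCD10 (ENSG00000114209, minus strand, chr3:167683298-167734939), the CCM3 protein that binds germinal centre kinases and the striatin phosphatase complex, was at 73.0, 92.8 and 66.7 TPM in sh-LINC00958 and at 142 and 163 TPM in sh-NC. Its groups did not overlap either, and the sh-LINC00958 mean of 77.5 ± 13.6 TPM (SD, n = 3) was 50.9% of the sh-NC mean of 152 ± 14.3 TPM (SD, n = 2), a fold change of -0.98 (SE 0.154, 95% interval -1.35 to -0.60). The neighbour that faces PDCD10, the serpin gene SERPINI1, starts 829 bases away on the other strand and was not tested, with 0.408, 0.541 and 0 TPM in sh-LINC00958 and 0.753 and 0.953 TPM in sh-NC.

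GNB4, a beta subunit of heterotrimeric G proteins, was at 7.70, 9.71 and 7.40 TPM in sh-LINC00958 and at 12.96 and 14.3 TPM in sh-NC, a fold change of -0.66 (95% interval -1.03 to -0.30). Its groups were apart, but it shares 1941 exon bases with an antisense gene, and the strand setting of the counting is not given in the sources used here. GPR160, an orphan receptor, was at 15.6, 26.9 and 19.2 TPM in sh-LINC00958 and at 34.8 and 31.3 TPM in sh-NC, with a fold change of -0.69 (95% interval -1.23 to -0.15). The silenced libraries of GPR160 were all lower but spread widely, and the gene was not called. PLD1, which makes the lipid signal phosphatidic acid, measured 6.0, 7.33 and 7.04 TPM in sh-LINC00958 and 7.11 and 6.42 TPM in sh-NC, with overlapping groups and a fold change of 0.0022 (95% interval -0.33 to 0.34). TNIK, a kinase of the Wnt pathway, had 2.39 to 2.88 TPM in sh-LINC00958 and 1.72 to 2.05 TPM in sh-NC. Every silenced library of TNIK was above both controls, with a fold change of 0.31 (95% interval -0.08 to 0.69) that did not pass.

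Chromatin and transcription genes were lower or level. TBL1XR1 (ENSG00000177565, minus strand, chr3:177019340-177228000), an exchange factor of the NCoR and SMRT corepressor complexes, was at 97.4, 72.1 and 90.5 TPM in sh-LINC00958 and at 165 and 134 TPM in sh-NC. Its sh-LINC00958 mean of 86.7 ± 13.04 TPM (SD, n = 3) was 58.0% of the sh-NC mean of 149 ± 21.8 TPM (SD, n = 2), with no overlap and a fold change of -0.78 (95% interval -1.17 to -0.40). PHC3 (ENSG00000173889, minus strand, chr3:170086732-170181749), a subunit of Polycomb repressive complex PRC1, was at 20.6, 24.0 and 19.1 TPM in sh-LINC00958 and at 32.4 and 33.2 TPM in sh-NC, a fold change of -0.61 (95% interval -0.91 to -0.31). PHC3 shares 1781 exon bases with an antisense gene listed at 0.0507 TPM or less on average in either group. ZNF639, a zinc finger gene, was at 67.4, 71.8 and 74.7 TPM in sh-LINC00958 and at 90.02 and 93.9 TPM in sh-NC, and with a fold change of -0.36 (95% interval -0.56 to -0.16) it was the smallest of the called differences.

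MECOM, which encodes the transcription factor EVI1 and lies within the band that names the block, was not called. It measured 63.1, 74.9 and 62.1 TPM in sh-LINC00958 and 86.1 and 94.3 TPM in sh-NC, so the groups were apart, with a fold change of -0.43 (95% interval -0.71 to -0.16). MYNN, a zinc finger gene with a BTB domain, measured 24.4, 26.4 and 21.1 TPM in sh-LINC00958 and 24.4 and 25.6 TPM in sh-NC, with overlap and a fold change of -0.06 (95% interval -0.36 to 0.23). SOX2, the stem cell factor that is a frequent target of 3q gains, was at 0.0199 TPM in sh-LINC00958 replicate 1 and at 0 in the other 4 libraries. It gave no measurement of a difference in these cells.

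The genes of ubiquitin-like modification were DCUN1D1 and USP13, and neither was called. DCUN1D1, which promotes attachment of NEDD8 to cullins, measured 22.9, 26.6 and 42.6 TPM in sh-LINC00958 and 75.6 and 39.4 TPM in sh-NC. The third silenced library was above the second control, and the fold change of -0.86 had a 95% interval of -1.72 to 0.0025. USP13, a deubiquitinase, measured 13.2, 16.4 and 12.8 TPM in sh-LINC00958 and 15.6 and 16.1 TPM in sh-NC, with overlap and a fold change of -0.16 (95% interval -0.49 to 0.17).

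Metabolic, membrane and mitochondrial genes went both ways. MCCC1 (ENSG00000078070, minus strand, chr3:183015218-183116075), the biotin-carrying subunit of methylcrotonyl-CoA carboxylase in leucine breakdown, was at 73.1, 70.4 and 74.4 TPM in sh-LINC00958 and at 37.6 and 44.8 TPM in sh-NC. All 3 silenced libraries were far above both controls, at 72.6 ± 2.02 TPM (SD, n = 3) against 41.2 ± 5.11 TPM (SD, n = 2), or 176% of the sh-NC mean, with a fold change of 0.81 (SE 0.1004, 95% interval 0.56 to 1.05). It is the last gene of the list along the chromosome. NCEH1 (ENSG00000144959, minus strand, chr3:172630249-172711218), a neutral cholesterol ester hydrolase, was at 18.3, 18.2 and 16.4 TPM in sh-LINC00958 and at 29.5 and 30.9 TPM in sh-NC, 58.5% of the sh-NC mean and a fold change of -0.74 (95% interval -0.99 to -0.50).

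CLDN11, a claudin of tight junctions, had the second largest negative fold change and no call. It measured 6.03, 9.53 and 2.09 TPM in sh-LINC00958 and 17.6 and 15.3 TPM in sh-NC. All silenced libraries were lower, but their spread was wide (5.88 ± 3.72 TPM, SD, n = 3, against 16.5 ± 1.63 TPM, SD, n = 2) and the 95% interval of the fold change of -1.51 ran from -2.72 to -0.30. CLDN11 shares 683 exon bases with AC026316.5, a protein-coding gene on the same strand, so its value is uncertain. ATP11B, a phospholipid flippase, measured 21.3, 29.9 and 20.2 TPM in sh-LINC00958 and 36.8 and 29.6 TPM in sh-NC, overlapping, with a fold change of -0.48 (95% interval -0.95 to 0.00068). MFN1, a mitofusin of mitochondrial fusion, measured 69.0, 70.8 and 78.7 TPM in sh-LINC00958 and 51.2 and 76.05 TPM in sh-NC, overlapping, with a fold change of 0.22 (95% interval -0.21 to 0.64).

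Among the remaining expressed genes, CCDC39 (ENSG00000145075, minus strand, chr3:180614008-180870933), a spacing protein of motile cilia, had the largest fold change of the block. CCDC39 was at 1.47, 2.50 and 1.43 TPM in sh-LINC00958 and at 6.98 and 7.37 TPM in sh-NC. The sh-LINC00958 mean of 1.80 ± 0.608 TPM (SD, n = 3) was 25.1% of the sh-NC mean of 7.17 ± 0.276 TPM (SD, n = 2), and the fold change was -1.57 (SE 0.206, 95% interval -2.07 to -1.06). The level is low, and the gene shares 3001 exon bases with a second annotated gene of the same name on the same strand, so the division of reads between them is uncertain. TTC14, a tetratricopeptide gene that overlaps the end of CCDC39 on the opposite strand, measured 26.8, 23.5 and 18.005 TPM in sh-LINC00958 and 27.7 and 24.8 TPM in sh-NC, with overlap and a fold change of -0.21 (95% interval -0.64 to 0.22).

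FNDC3B, a fibronectin type III domain gene, measured 39.2, 40.5 and 37.0 TPM in sh-LINC00958 and 34.9 and 39.7 TPM in sh-NC, with overlap and a fold change of 0.06 (95% interval -0.18 to 0.30). KCNMB3, a potassium channel subunit, measured 5.34, 5.28 and 5.73 TPM in sh-LINC00958 and 4.93 and 5.08 TPM in sh-NC, with a fold change of 0.10 (95% interval -0.20 to 0.40). Its silenced libraries were all slightly higher, and it shares 3403 exon bases with a protein-coding gene on the opposite strand, so its value is uncertain. ACTRT3, an actin-related gene, had 3.22 to 4.09 TPM in sh-LINC00958 and 3.17 to 4.13 TPM in sh-NC. LRRC34, a leucine-rich repeat gene, had 1.06 to 4.11 TPM in sh-LINC00958 and 2.00 to 2.47 TPM in sh-NC. The groups overlapped in both genes. Exon bases shared with other annotated genes also make the values of LRRC34 (1252 bases with an antisense gene), MYNN (794), GPR160 (519), TTC14 (399) and ATP11B (396) uncertain.

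The other 15 genes had a mean under 1 TPM and were not tested. SLC7A14, SLC2A2 (the glucose transporter GLUT2 of liver and pancreas) and GHSR (the ghrelin receptor) were listed at 0 in every library. SOX2, WDR49, SAMD7 and SPATA16 were above 0 in 1 library each, at 0.0777 TPM or less. TNFSF10, the death receptor ligand TRAIL, lay just under the limit, with 0.778, 1.18 and 1.08 TPM in sh-LINC00958 and 1.02 and 0.890 TPM in sh-NC, and its groups overlapped. NAALADL2 had 0.188, 0.981 and 0.590 TPM in sh-LINC00958 and 0.743 and 0.960 TPM in sh-NC, and LRRIQ4 had 0.171 to 0.516 TPM in sh-LINC00958 and 0.304 to 0.357 TPM in sh-NC, both overlapping. The synaptic adhesion gene NLGN1 (0.0227 to 0.136 TPM in sh-LINC00958 and 0.146 to 0.148 TPM in sh-NC) and PEX5L (0.245 to 0.331 TPM in sh-LINC00958 and 0.456 to 0.464 TPM in sh-NC) were lower in every silenced library. KCNMB2 (0.437 to 0.448 TPM in sh-LINC00958 and 0.338 to 0.346 TPM in sh-NC) and LRRC31 (0.0402 to 0.131 TPM in sh-LINC00958 and 0 to 0.0305 TPM in sh-NC) were higher in every one. With no known depth, no interval can be put on values this low.

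The libraries differed among themselves in the block. The sh-LINC00958 replicate 2 library had the highest level of the 3 in 16 of the 28 tested genes (57.1%, against 43.2% of all genes tested). Replicate 3 had the lowest in 15 of the 28, and in 43.1% of all genes tested. Relative to the sh-NC mean, the median over the 28 genes was 67.6% in replicate 1, 86.2% in replicate 2 and 71.5% in replicate 3. Such medians over all genes are not given, so these are not read as particular to the block. Among the genes called lower, EIF5A2, TBL1XR1, ZNF639 and NCEH1 did not have their highest value in replicate 2.

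Along the chromosome there were runs of lower genes, runs of level ones, and close neighbours that differed. The 43 genes span 15.64 Mb (GRCh38, chr3:167478684-183116075). MFN1 and GNB4, on opposite strands, have their ends 1.16 kb apart and their starts 103761 bases apart. Their fold changes were 0.22 and -0.66, and ZNF639, 9.11 kb before MFN1, had -0.36. From SEC62 through GPR160, PHC3 and PRKCI to CLDN11, every tested listed gene was lower in every silenced library (-0.58, -0.69, -0.61, -0.91 and -1.51), as was the unlisted SKIL between the last pair. ACTRT3, MYNN and LRRC34, next to each other before that run, had -0.03, -0.06 and -0.04, and TNIK, PLD1 and FNDC3B, after EIF5A2, had 0.31, 0.0022 and 0.06. DCUN1D1 and MCCC1, 29.3 kb apart at the far end of the block, had -0.86 and 0.81. The GENCODE 29 annotations of CCDC39 and FXR1 overlap at their ends on opposite strands, and their fold changes were -1.57 and 0.13. RefSeq places their starts apart, at chr3:180679489 for CCDC39 and chr3:180912670 for FXR1.

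**Figure D2:**
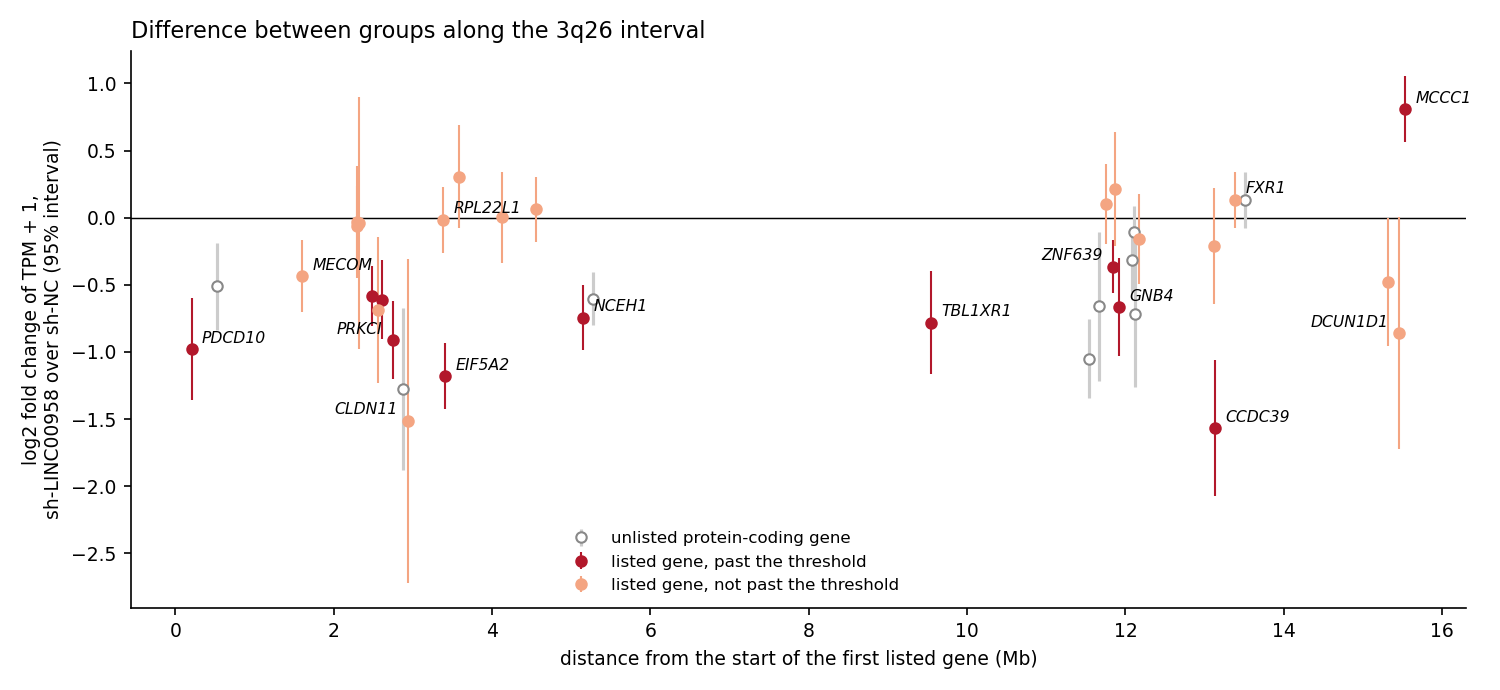
Fold change (log2 of TPM + 1, sh-LINC00958 over sh-NC, with the limma 95% interval) of tested genes against the distance in Mb from the start of the first listed gene. A run of lower genes from SEC62 to CLDN11 follows a stretch of level ones, and RPL22L1 (level) and EIF5A2 (lower) come after it. The unlisted protein-coding genes (open circles) are mostly below 0, and MCCC1, at the far end, is the called gene above 0.

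The interval holds 189 genes that are not on the list, of which 25 were tested. Of these 25, 5 were called lower (20%, against 5.68% of all genes tested) and 0 higher (against 4.12%). At an unadjusted limma p under 0.05 there were 12 lower and 1 higher. The median fold change of the 25 was -0.32. The 9 that code for proteins had a median of -0.60, with 8 of them below 0. Of these 9, 3 were called lower (33.3%, against 6.78% of all protein-coding genes tested). ZMAT3, an RNA-binding target of p53, fell to 18.9, 22.7 and 18.1 TPM in sh-LINC00958, against 41.8 and 42.3 TPM in sh-NC (fold change -1.05, limma adjusted p = 0.0133). SKIL, a SMAD corepressor between PRKCI and CLDN11, fell to 22.4, 17.6 and 11.9 TPM in sh-LINC00958, against 42.6 and 41.3 TPM in sh-NC (-1.28, limma adjusted p = 0.0352). ECT2, a cytokinesis gene next to NCEH1, fell to 113, 127 and 115 TPM in sh-LINC00958, against 179 and 181 TPM in sh-NC (-0.60, limma adjusted p = 0.0183). The other 2 called were AC007823.1, a lincRNA (-1.26), and the pseudogene ATP5G1P4 (-0.80), both under 5 TPM on average and named after their values were seen.

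Of the other unlisted genes with a mean of at least 5 TPM, the Golgi gene GOLIM4 (-0.51), the complex I subunit gene NDUFB5 (-0.72), the chromatin remodelling gene ACTL6A (-0.31) and the mitochondrial ribosome gene MRPL47 (-0.11) had every silenced library below both controls without a call. DNAJC19, of mitochondrial protein import (0.13), and the pseudogene AC074033.1 (0.20) had every one above both, also without a call. AC078795.1 (-0.17), UBE2V1P2 (-0.08) and KCNMB2-AS1 (-0.14) overlapped. The calls of the unlisted genes moved too when single libraries were left out. Without either sh-NC library or without sh-LINC00958 replicate 1, limma called 0 of the 5 (at an unadjusted p under 0.05 there were 9 lower genes when sh-NC replicate 1 was left out, 7 when sh-NC replicate 2 was and 12 when sh-LINC00958 replicate 1 was). Without sh-LINC00958 replicate 3 it called ZMAT3 alone, and without replicate 2 it did not call SKIL or ATP5G1P4. With the GC and length correction described below, ZMAT3 and ATP5G1P4 were still called, and SKIL, ECT2 and AC007823.1 were not. With no filter on low values only ECT2 and ZMAT3 were called, and limma without the trend did not call SKIL.

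Just outside the block no tested gene was called. BCHE, the nearest before it, had 16.4, 20.5 and 23.3 TPM in sh-LINC00958 and 23.4 and 24.2 TPM in sh-NC, a fold change of -0.25. The 3 tested genes after MCCC1 were LAMP3 (-0.21), B3GNT5 (-0.81) and LINC00888 (-0.67). B3GNT5 measured 25.2, 18.1 and 17.2 TPM in sh-LINC00958 and 25.2 and 49.9 TPM in sh-NC, so its fold change came with a wide gap between the controls. Over longer distances, the 228 protein-coding genes tested on the long arm before the block had a median of -0.11. Of these, 22 were called lower (9.65%, against 6.78% of all protein-coding genes tested) and 4 higher. The 87 after the block had a median of -0.06, with 2 called lower (2.3%) and 7 higher. The 354 of the short arm had a median of 0.05, with 17 called lower (4.8%) and 12 higher. The median of the listed genes, at -0.40, was below the medians of these 3 stretches outside the block. The list was made with these values known, and no test of that difference was made.

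**Figure D3:**
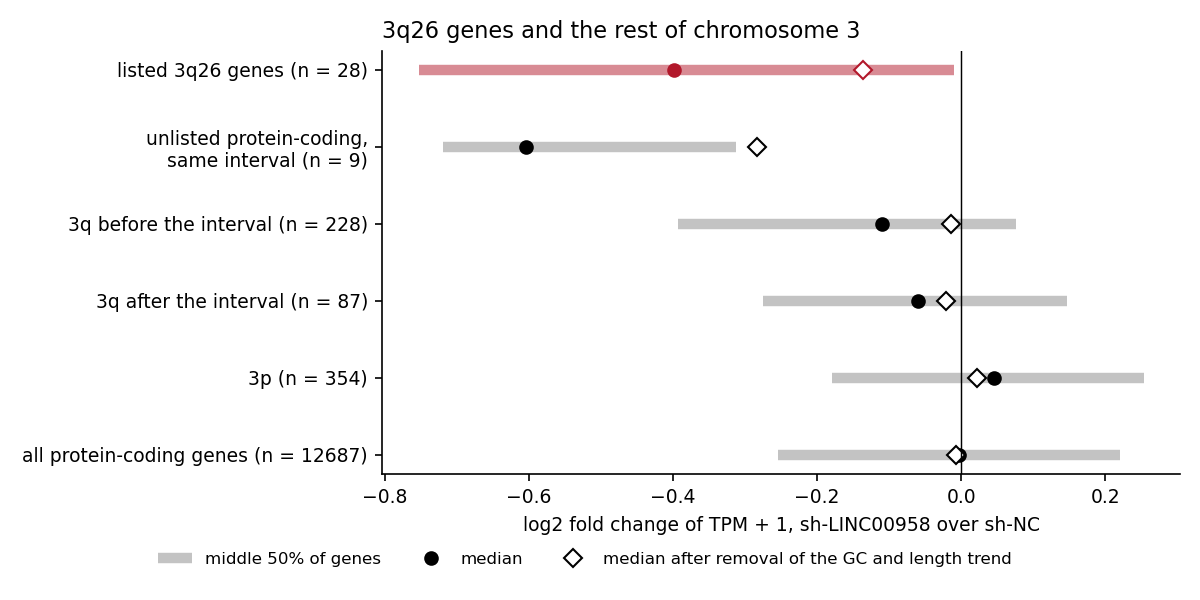
Median (circle) and middle 50% (bar) of fold changes (log2 of TPM + 1, sh-LINC00958 over sh-NC) of the listed 3q26 genes, of unlisted protein-coding genes of the same interval, of other stretches of chromosome 3 and of all protein-coding genes tested. Open diamonds are medians after the GC and length correction described below, which bring the listed genes to -0.14 and the unlisted ones to -0.28.

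The genes of the block had transcripts poor in G and C, and GC content moved with the fold change over all genes tested. The median GC content of the longest transcript was 39.1% for the 28 genes and 48.2% for all genes. With all genes tested divided into 4 bins of like size by GC content, 20 of the 28 lay in the lowest bin (23.1% to 42.0%), 6 in the second, 2 in the third and 0 in the fourth. All 4250 genes of the lowest bin had a median fold change of -0.29, with 15.6% called lower, and the 20 genes of the block in it had a median of -0.60, with 10 (50%) called lower. In the highest bin all genes had a median of 0.18.

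When a smooth trend over GC content and transcript length was removed from each library, the median of the 28 genes was -0.14, against -0.01 over all genes. Of the 10 genes called lower, CCDC39 (-1.20 after the removal), EIF5A2 (-0.69), PRKCI (-0.63), PDCD10 (-0.59) and NCEH1 (-0.54) were still called. TBL1XR1 (-0.29), SEC62 (-0.20), PHC3 (-0.27), GNB4 (-0.37) and ZNF639 (-0.12) were not. Of all genes in that fit, 2.78% were called lower. MCCC1 was called with a fold change of 0.83. CLDN11, at 50.3% the highest GC content among the 28 tested genes, had -1.57. FXR1 (0.48), MFN1 (0.47) and KCNMB3 (0.55) then stood higher than before the removal, without a call. MYNN (0.27, 95% interval 0.06 to 0.47), LRRC34 (0.41), TTC14 (0.24) and RPL22L1 (0.11) turned from negative to positive, also without a call. At an unadjusted p under 0.05 the block held 10 lower and 6 higher genes after the removal, against 13 and 1 before. The share of all genes at that unadjusted threshold is not given, so nothing is read from these counts.

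**Figure D4:**
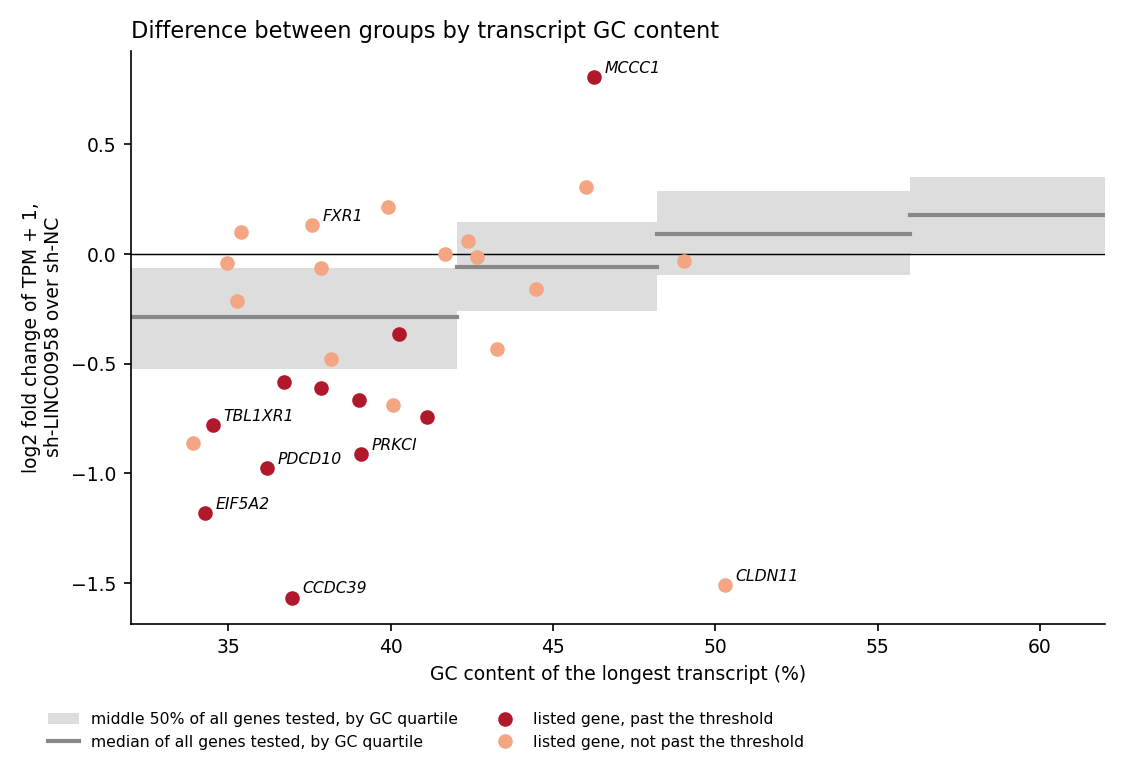
Fold change (log2 of TPM + 1, sh-LINC00958 over sh-NC) of the 28 tested 3q26 genes against the GC content of the longest transcript in percent, over the median and middle 50% of all genes tested in each GC bin. Most listed genes lie in the lowest bin, and EIF5A2, CCDC39, PDCD10 and PRKCI lie below its middle 50% while FXR1 lies above it.

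Known partners of the proteins were looked at in 13 lists of genes encoded outside the block. Over the 120 genes tested, counted once each, 13 fell (10.8%, against 5.68% of all genes) and 8 rose (6.67%, against 4.12%), with a median fold change of -0.06. For PRKCI, 2 of 10 partners fell and 1 rose. CDC42, the small GTPase that activates the polarity complex, fell to 153, 170.5 and 163 TPM in sh-LINC00958, against 347 and 334 TPM in sh-NC (fold change -1.07, limma adjusted p = 0.00558). The adaptor PARD6B fell to 10.3, 12.2 and 11.5 TPM in sh-LINC00958, against 22.8 and 21.5 TPM in sh-NC (-0.91, limma adjusted p = 0.0161). LLGL2, a basolateral polarity gene and kinase substrate, rose (0.43, limma adjusted p = 0.0308), and the other 7 did not pass, among them the scaffold gene PARD3 (0.04), looked up after its value was seen.

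For PDCD10, 3 of 14 partners fell and 1 rose. MOB4, a subunit of the striatin complex, fell to 24.2, 30.5 and 23.8 TPM in sh-LINC00958, against 54.0 and 59.3 TPM in sh-NC (fold change -1.09, limma adjusted p = 0.0155). STRN (striatin, -0.55, limma adjusted p = 0.0469) and FGFR1OP2 (-0.51, limma adjusted p = 0.0292) fell too. CCM2, the partner in the cerebral cavernous malformation complex, rose to 41.9 ± 3.97 TPM in sh-LINC00958 (SD, n = 3), against 26.9 ± 0.215 TPM in sh-NC (SD, n = 2; 0.62, limma adjusted p = 0.0278).

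For DCUN1D1, 4 of 18 neddylation genes fell and 0 rose in limma (6 lower and 0 higher at an unadjusted p under 0.05). NAE1, a subunit of the NEDD8-activating enzyme, fell to 59.9, 56.5 and 51.05 TPM in sh-LINC00958, against 131 and 139 TPM in sh-NC (fold change -1.26, limma adjusted p = 0.00597). DCUN1D4 (-0.82, limma adjusted p = 0.0178) and the cullins CUL5 (-0.65, limma adjusted p = 0.0462) and CUL4B (-0.56, limma adjusted p = 0.0245) fell as well. DCUN1D1 itself, at -0.86, was not called.

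Relatives of block genes went both ways. TBL1X, the X-linked paralogue of TBL1XR1, rose to 36.2, 37.0 and 38.4 TPM in sh-LINC00958, against 24.7 and 23.8 TPM in sh-NC (fold change 0.60, limma adjusted p = 0.0205), the 1 called gene of 5 in its list. GNB2 rose (0.60, limma adjusted p = 0.0452), 1 of 5 relatives of GNB4. USP5 rose to 132.8 ± 4.68 TPM in sh-LINC00958 (SD, n = 3), against 88.8 ± 3.87 TPM in sh-NC (SD, n = 2; 0.58, limma adjusted p = 0.0178), 1 of 5 in the USP13 list. FXR2 rose (0.37, limma adjusted p = 0.0493) and the FXR1 partner TDRD3 fell (-0.66, limma adjusted p = 0.0456), among 6. DCUN1D4, a relative of DCUN1D1, fell (above). Other relatives, named after their values were seen, were not called, among them EIF5A (0.10, 95% interval -0.08 to 0.27), MFN2 (-0.02, 95% interval -0.29 to 0.25), DCUN1D5 (-0.38), FMR1 (-0.34), GNB5 (-0.28), PHC1 (-0.15), PHC2 (0.17) and PRKCZ (0.03).

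In the other lists, 1 of 11 protein translocation genes of the SEC62 list fell (TRAM1, fold change -0.92, limma adjusted p = 0.0443) and 0 rose (3 lower and 3 higher at an unadjusted p under 0.05). Of 17 Polycomb genes of the PHC3 list, PCGF5 (-0.45, limma adjusted p = 0.0254) and RYBP (-0.53, limma adjusted p = 0.0458) fell and 0 rose (5 lower and 3 higher at an unadjusted p under 0.05). Of 6 genes of the TNFSF10 receptor list 0 fell (also 0 lower at an unadjusted limma p under 0.05), while the decoy receptor gene TNFRSF10D (0.38, limma adjusted p = 0.0328) and the adaptor gene FADD (0.35, limma adjusted p = 0.0492) rose. None of 3 genes in the EIF5A2 list, 9 in the MFN1 list and 11 in the MCCC1 list passed, and the smallest adjusted p in each was that of DHPS (0.141), FIS1 (0.0863) and BCKDHB (0.0651). At an unadjusted limma p under 0.05 there were 0 lower and 1 higher, 2 and 1, and 2 and 1 in these lists. MCCC2, the other subunit of the enzyme of MCCC1, was looked up after its value was seen. It had 99.3, 95.05 and 83.0 TPM in sh-LINC00958 and 113 and 107 TPM in sh-NC, lower in every silenced library where MCCC1 was higher, with a fold change of -0.25 that did not pass (95% interval -0.50 to -0.01, limma adjusted p = 0.155).

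**Figure D5:**
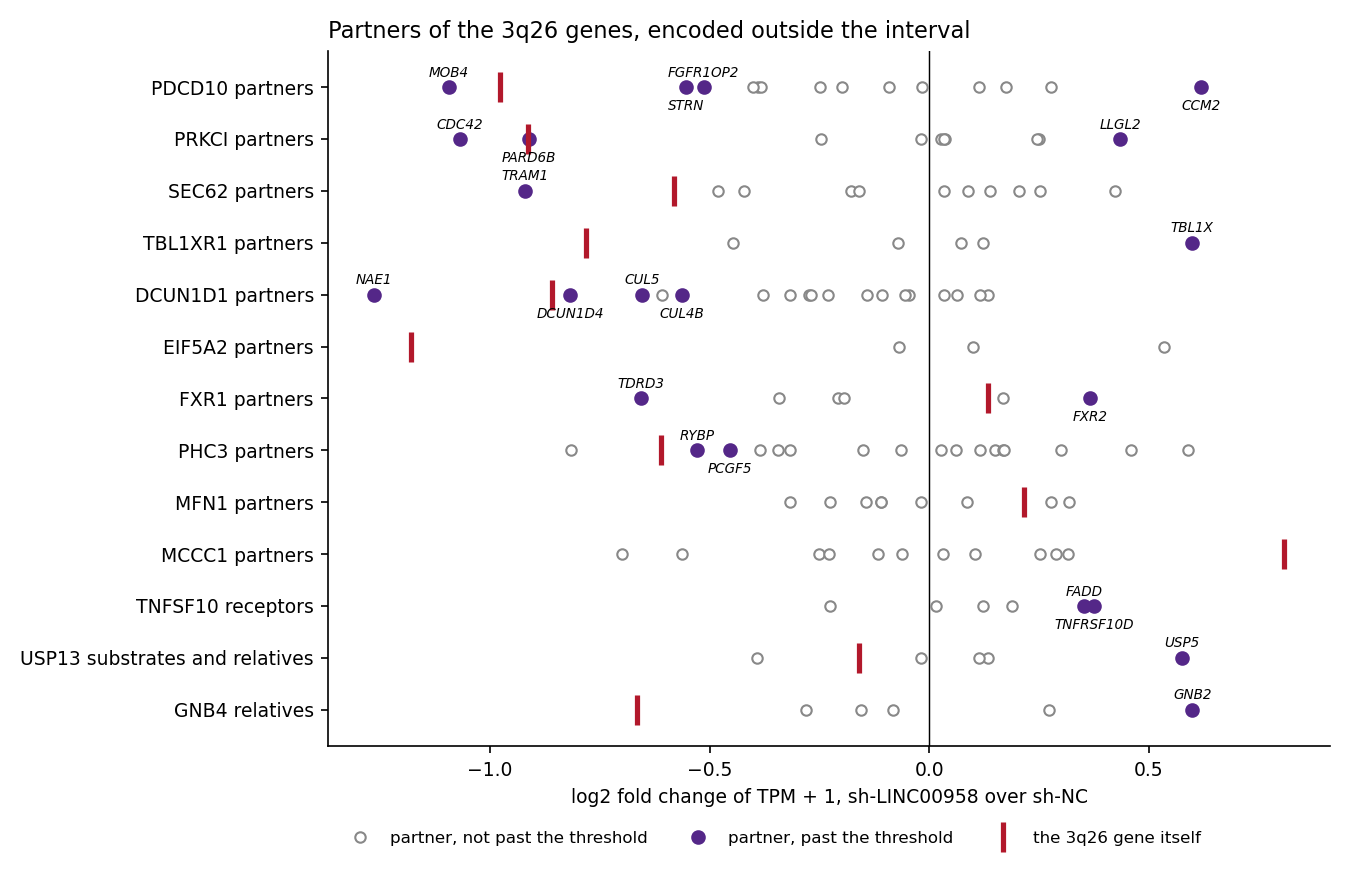
Fold change (log2 of TPM + 1, sh-LINC00958 over sh-NC) of the tested partners in each of 13 lists (circles, filled where past the limma threshold) and of the 3q26 gene itself (bar), TNFSF10 having none. Partners lie on both sides of 0 in nearly every list, with NAE1, MOB4 and CDC42 farthest below and CCM2, TBL1X, GNB2 and USP5 farthest above among the called ones.

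The partner calls also moved when single libraries were left out, with the GC and length correction and with the model. CDC42 and NAE1 were called without sh-LINC00958 replicate 1 and without replicate 3, the others of the 21 were not, and without either sh-NC library limma called 0 (at an unadjusted p under 0.05, 21 lower and 11 higher when sh-NC replicate 1 was left out, and 20 and 18 when sh-NC replicate 2 was). Without sh-LINC00958 replicate 2, 18 of the 21 were called. With GC content and length corrected for, 8 of the 21 were called, namely CDC42, DCUN1D4, MOB4, NAE1, PARD6B, TBL1X, TNFRSF10D and USP5. With no filter on low values 8 of the 21 were called, with limma without the trend 9, and with a pseudocount of 0.1 all but FXR2 and FADD.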

How the data were processed

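Gene expression was measured by RNA sequencing of 5 libraries, 3 of sh-LINC00958 and 2 of sh-NC, grouped by their titles. The authors deposited TPM values, per the file header, for 58174 genes, and the submitters' processing notes name Trimmomatic 0.36, FastQC 0.11.2, HISAT2 2.0 and StringTie 1.3.3b with GRCh38. TPM makes every value relative to the rest of its library, which sums to about the same total, so depth is unknown and no counting interval is given.

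For 17049 genes with a mean of at least 1 TPM, log2(TPM + 1) was compared between the groups over all 5 libraries with limma (version 3.58.1, eBayes with trend, R 4.3.3). The two-sided p-values were adjusted by Benjamini-Hochberg across these genes, a gene being called under 0.05, and the fit was tested on simulated data. The log2(TPM + 1) scale understates changes of low genes. Intervals are limma's 95% intervals, not adjusted for the number of genes. Counts at an unadjusted p under 0.05 are given without the share over all genes, so nothing is read from them. Nothing in the labels says that libraries were separate cultures, so p-values measure only how these samples vary, and that variation may be technical.

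Coordinates, transcript GC content and length came from GENCODE 29, matched by gene ID for 57836 genes, and the GC and length trend was removed with mgcv 1.9.3. The members, marker lists and partner lists were chosen with earlier results of these data known. Genes of the block with a mean of at least 5 TPM were to be given in full, with LINC00958, unlisted genes of the interval at that level, and partners past the threshold or with the smallest p. A gene that this takes is not reported here. The alternatives were pseudocounts of 0.1 and 5, other filters, scalings and variance models, removal of the GC and length trend, a replicate block, and each library left out in turn.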

Additional observations from a re-analysis of the deposited data

How the results depend on the processing

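The 10 lower and 1 higher calls in the block were the same in number with pseudocounts of 0.1 and 5 and with robust eBayes, and no called gene turned direction under any alternative run. Lower calls numbered 3 with no filter (0.763% of all 35238 genes in that fit), 6 with limma without the trend (3.04% of all genes) and 5 with the GC and length trend removed (2.78%), which also brought the median of the block to -0.14. With 1 library left out in turn, lower calls numbered 0 to 12 and higher calls 0 to 1. The LINC00958 log2 fold change then ranged from -1.09 to -0.89, with adjusted p-values of 0.0545 without sh-LINC00958 replicate 1 and of 0.0677 and 0.0871 without sh-NC replicate 1 or 2. With 1 sh-NC library left, its spread is assumed to be that of the sh-LINC00958 libraries. With the replicate block, limma called 0 lower and 0 higher genes of the block (13 and 1 at an unadjusted p under 0.05), 0 of the 21 partner calls (25 lower and 14 higher partners at an unadjusted p under 0.05), and LINC00958 had -0.92 (adjusted p = 0.104). In that fit sh-LINC00958 replicate 3 has no sh-NC library of its number. Deviations from the group mean of libraries that share a number correlated at 0.00131 for number 1 and 0.0497 for number 2 over 17049 genes. The 2 sh-NC libraries deviate from their mean by equal and opposite amounts, so these correlations are not independent and cannot decide on pairing. The main fit does not take the numbers as pairs. Median-ratio scaling added MECOM to the lower calls and quantile normalization lost ZNF639. Fits with 1 library left out rest on fewer libraries, and the fit with no filter adjusted over more genes. Why the calls moved was not tested. Unknown depth limits what the genes under 1 TPM can show.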
